A study of Marmota monax with 203 samples.

Results

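Liver biopsies of woodchucks chronically infected with woodchuck hepatitis virus (WHV) were compared at week 11 of treatment, in the high dose phase, between animals dosed with recombinant woodchuck interferon (IFN)-α5 (wIFN-α, labelled IFN-alpha) and animals dosed with vehicle (labelled Placebo). The 18 biopsies were chosen by their labelled time point, which counts the first treatment week as 1 and so reads 12, and they make up 18 of the 164 biopsies of the series. All animals were adult chronic carriers of both sexes that had been infected with WHV as newborns. The wIFN-α group held 3 males and 5 females, and the placebo group 4 males and 6 females. Doses were given subcutaneously 3 times per week, at 20 μg per animal until the switch to 100 μg at week 7, so that each wIFN-α animal had already received the low dose before the high dose. Biopsies on treatment were taken 6 h after a dose. Of the 12 wIFN-α animals, M1004 was left out because the study set it aside as probably clearing WHV naturally, and M1006, M1007 and F1023 had no biopsy of this week among those analysed here, as had placebo animals M1009 and M1010.

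As background, IFN-α binds the receptor chains IFNAR1 and IFNAR2, which act through the kinases JAK1 and TYK2 and the factors STAT2 and IRF9, among others, to switch on interferon-stimulated genes (ISGs). Many ISG products act directly on viral RNA, on translation or on virion assembly, and others raise antigen presentation and recruit lymphocytes. WHV, like the related hepatitis B virus of humans, keeps its genome in the hepatocyte nucleus as covalently closed circular DNA, from which its RNAs are transcribed.

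Each biopsy gave 12072840 to 42603139 reads on genes, with a median of 34361666 in the wIFN-α livers and 26827204 in the placebo livers. Hepatocyte markers were high in every biopsy, with ALB, which encodes albumin, at 23339 to 44513 counts per 1000000 reads on genes (CPM, with TMM-scaled library sizes). Some biopsies also held RNA of neighbouring tissues. Skeletal muscle genes took 2.11% of the reads in wIFN-α animal M1012 and 1.15% in placebo animal F1015, and at most 0.735% in the others. The summed level of the muscle list, in CPM without that scaling, ranged from 212 to 21135 CPM (median 413) with wIFN-α and from 244 to 11513 CPM (median 3642) with placebo. Skin genes took 0.325% of the reads in F1015 and 0.255% in F1017, both placebo, and at most 0.005% elsewhere. The skin marker KRT5 was at 0 in 10 biopsies. Results that rest on these 3 biopsies are given with and without them, which was decided after seeing the data. The animals also gave biopsies before treatment, at week -3, so each call was repeated in a fit of weeks -3 and 11 that kept the animal as a block. The week -3 biopsies of F1018 (wIFN-α) and F1016 (placebo) held 13.4% and 13.3% muscle reads, and the blocked fit was therefore also run without these 2 animals, again after seeing the data.

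WHV reads were lower with wIFN-α at week 11. In the wIFN-α livers the virus gave 835 to 21771 reads per 1000000 reads on genes, with a median of 12051, and in the placebo livers 10089 to 36954, with a median of 20882. Of the 8 wIFN-α livers, 3 lay below every placebo liver, and 5 of the 10 placebo livers lay above every wIFN-α liver, so the groups overlapped. The lowest placebo values, 10089 and 10888, were those of F1017 and F1015, the biopsies with skin reads. The lowest value, 835, belonged to M1002. On the log2 scale the group means were 13.13 and 14.25, a difference of -1.12 or 2.17-fold (two-sided exact permutation test, p = 0.0126). Without M1002 the difference was -0.63 (exact permutation test, p = 0.0396). Without the muscle and skin biopsies M1012, F1015 and F1017 it was -1.46 (exact permutation test, p = 0.00109), a setting chosen after seeing the data. Poly(A) reads cannot tell fewer infected cells from less viral RNA per cell, and the same holds for every gene of a single cell type below.

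Against its own week 0 biopsy, the first on treatment, WHV was lower at week 11 in 8 of 8 wIFN-α animals and in 6 of 10 placebo animals. Against the week -3 biopsy it was lower in 7 of 8 and in 8 of 10. The median ratio of week 11 to week 0 was 0.450 with wIFN-α and 0.909 with placebo. The mean log2 changes, -1.56 and -0.10, differed by -1.46 (exact permutation test, p = 9.60e-04), a comparison chosen after seeing the data. Taken from week -3 instead, the changes differed by -0.68 (exact permutation test, p = 0.600) with all animals and by -1.05 (exact permutation test, p = 0.0102) without F1016 and F1018, whose week -3 biopsies held only 86 and 34 WHV reads per 1000000 reads. Among biopsies labelled with lane number 3, 4, 7 or 8 the differences were -3.47, 0.07, -1.28 and -0.23, each with 1 or 2 wIFN-α livers. The placebo livers with lane number 4 were F1015 and F1017, the biopsies with skin reads. Libraries of M1003 and F1017 carry the same lane number and barcode, so 1 number can stand for more than 1 physical lane.

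**Figure D1:**
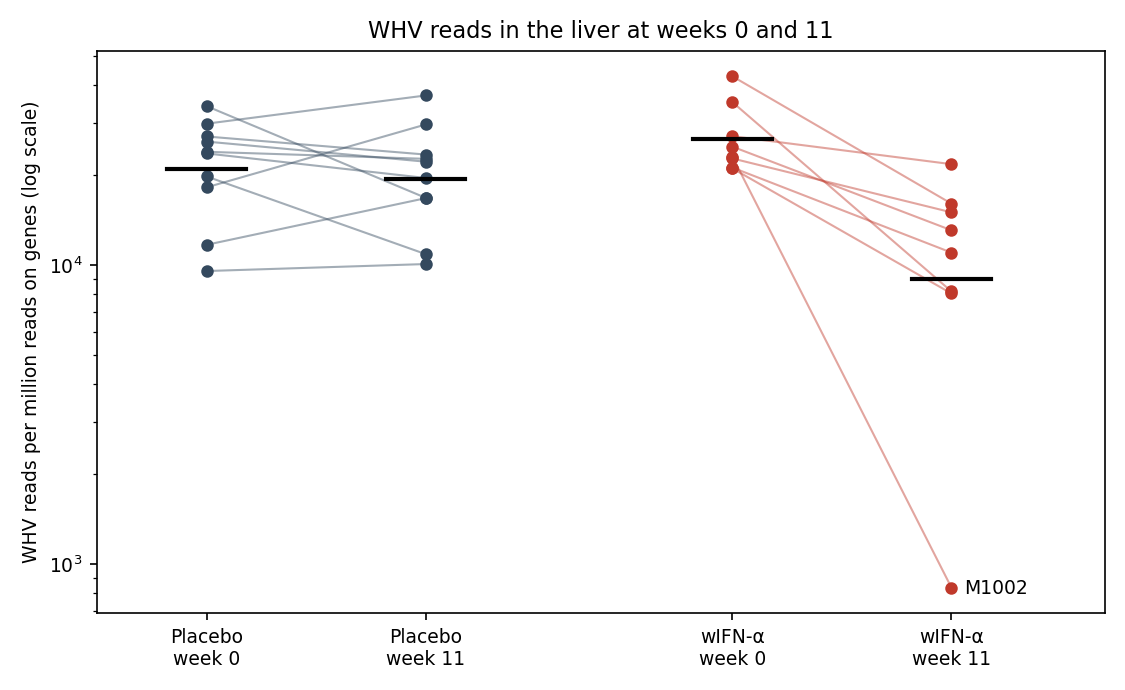
WHV reads per 1000000 reads on genes (log axis) in each liver at weeks 0 and 11, for the 10 placebo animals (dark) and the 8 wIFN-α animals (red). Lines join the biopsies of one animal and black bars are geometric means. All 8 red lines fall, the steepest being M1002 to 835, while placebo lines go both ways.

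Of the 14966 genes tested at week 11, 3073 (20.5%) were called, which required a fold change above 1.5 together with an adjusted p below 0.05. There were 1879 genes (12.6%) higher and 1194 (7.98%) lower with wIFN-α, and the median log2 fold change of all genes was -0.03. In 1096 genes (7.32%) every wIFN-α liver lay above every placebo liver, and in 301 (2.01%) every one lay below. These shares of all genes are the background for the counts of list members given below. Higher calls moved less between settings than lower calls. Of the 1879 higher calls, 1758 were also made without the muscle and skin biopsies and 1212 with the animal as a block. Of the 1194 lower calls, 1013 and 315 were. Without the muscle and skin biopsies the calls were 12.6% higher and 8.29% lower. The blocked fit called 1292 genes higher (8.40%) and 361 lower (2.35%) in all, and 1713 (11.1%) and 954 (6.19%) without F1016 and F1018. At week -3, before dosing, 0 of 14963 genes were called by edgeR, with 130 at an unadjusted p under 0.05.

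**Figure D2:**
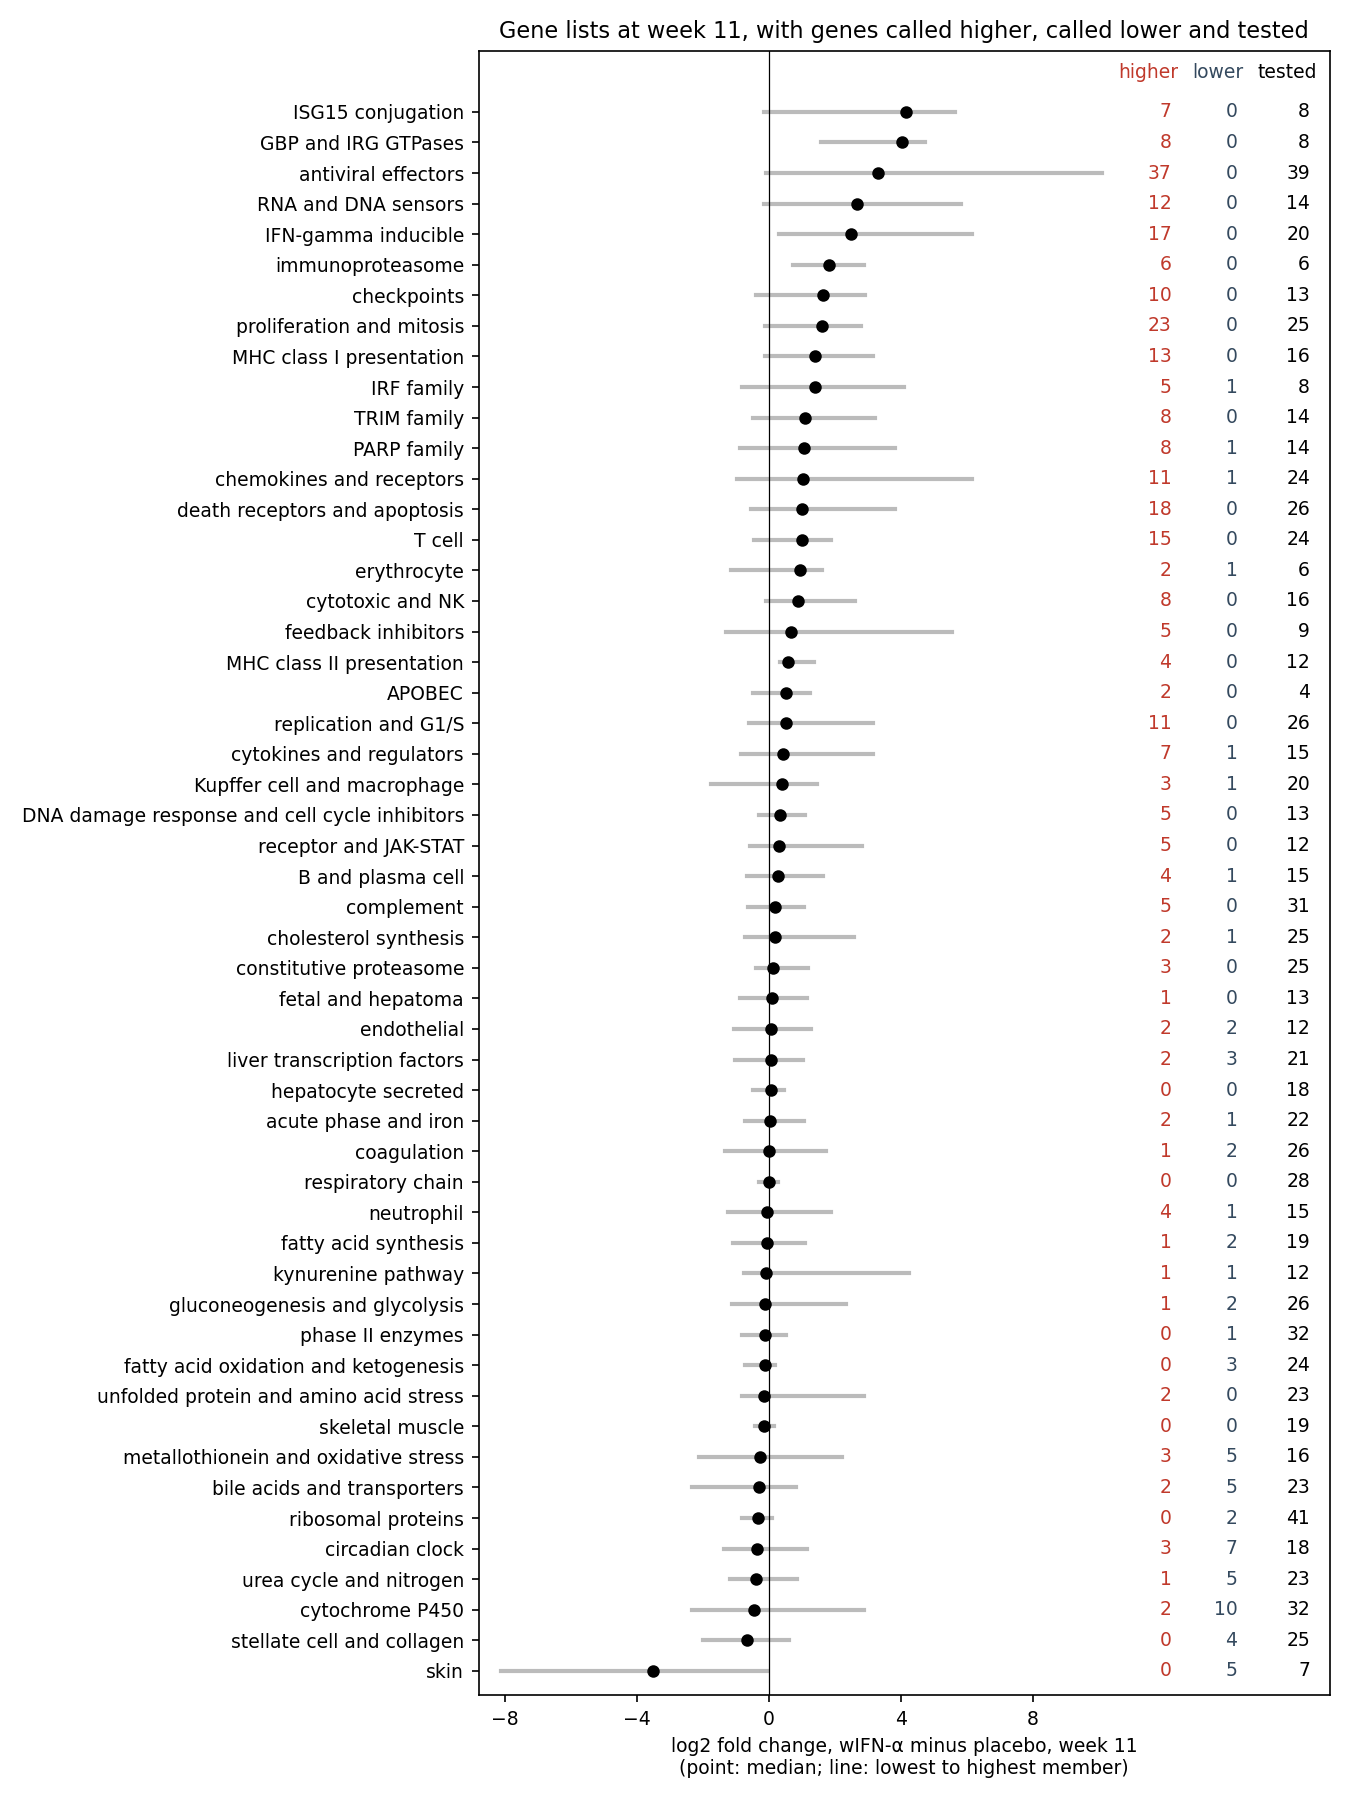
Log2 fold change (wIFN-α minus placebo, week 11) of each gene list, with the median of its tested genes as a point, a line from its lowest to its highest gene, and the numbers called higher, called lower and tested at the right. ISG15 conjugation, GBP and antiviral effector lists lie at the top with medians of 3.31 to 4.14, most metabolic lists lie near 0, and the skin list, set by 2 placebo biopsies, lies lowest.

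The genes that rose most were mostly known ISGs. MX2, a GTPase that blocks the nuclear steps of several viruses, had 0 to 3 reads in each placebo liver (0 in 5 of 10) and 424 to 2563 reads in each wIFN-α liver. Summed over the animals its share of the gene reads was 1175 times higher (95% counting interval 619 to 2571). RSAD2, or viperin, which makes a chain-terminating nucleotide, was at 16.0 to 26.2 CPM (median 21.0) in placebo and 2644 to 3915 CPM (median 3773) with wIFN-α, a log2 fold change of 7.41 ± 0.14 (SE, adjusted p = 7.66e-18). OASL, an antiviral relative of the 2'-5' oligoadenylate synthetases, rose from a placebo range of 2.99 to 20.6 CPM (median 5.24) to 884 to 1605 CPM (median 1311), a log2 fold change of 7.41 ± 0.39 (adjusted p = 1.29e-11). All 8 wIFN-α livers lay above all 10 placebo livers for these 3 genes. IFIT3 (log2 fold change 7.18) and IFIT2 (6.21), which bind viral RNA, followed, as did the chemokine CXCL10 (6.17), ZBP1 (5.82), the apolipoprotein L genes APOL3 (6.06) and APOL2 (5.77), and USP41 (5.72), a near copy of the deubiquitinase USP18, so that reads may be shared between the copies.

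Less usual names stood among the 15 highest. TMPRSS2, a transmembrane serine protease that primes viral fusion proteins, lay at 0.867 to 2.30 CPM (median 1.65) in placebo and 58.5 to 427 CPM (median 146) with wIFN-α, a 107-fold difference with no overlap (log2 fold change 6.74 ± 0.38, adjusted p = 3.27e-11). LGALS13, a galectin, went from at most 0.254 CPM (median 0.0755) to between 1.91 and 9.49 CPM (median 3.48), also with no overlap. OCM2, an oncomodulin gene, had 3 reads over the placebo livers together and 15 to 136 in each wIFN-α liver, a ratio of 218 (95% counting interval 74.2 to 1060). GBGT1, a glycosyltransferase that makes the Forssman glycolipid, was the most uneven of them. Its placebo range was 0.110 to 0.677 CPM (median 0.262) and its wIFN-α range 0.593 to 43.4 CPM (median 14.4). In F1018 and F1020 it stayed at 0.593 and 0.617 CPM, within the placebo range, while F1014 and F1022 reached 43.4 and 36.8 CPM. The fitted log2 fold change was 5.84 ± 0.77 (adjusted p = 7.13e-06).

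Within the pathway itself the signal transducers changed unevenly. Of 12 tested receptor and JAK-STAT genes, 5 rose, against 12.6% of all genes, and 0 fell. Their median log2 fold change was 0.29 and the highest 2.83. The kinase JAK2 (1.66), the receptor chain IFNAR2 (1.26) and IRF9 (0.69) rose in every animal beyond the placebo range. IFNAR2 lay at 11.6 to 20.1 CPM (median 15.2) and 30.1 to 43.3 CPM (median 38.9). IFNAR1 (0.13), JAK1 (0.04), TYK2 (0.05) and STAT2 (-0.37) were not called. The call of IL10RB (0.70) was lost without F1020 (log2 fold change 0.49, adjusted p = 0.0726) and with the block (adjusted p = 0.263).

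Among 9 inhibitors of the pathway, 5 rose, against 12.6% of all genes, and 0 fell, all 5 also with the block. USP18, which removes ISG15 and blocks IFNAR2 signalling, rose 46.5-fold, from 2.65 to 31.6 CPM (median 6.27) to 335 to 508 CPM (median 396). The phosphatase PTPN1 (log2 fold change 1.34), the SUMO ligase PIAS1 (1.12) and SOCS1 (1.09) were also higher in all 8 animals than in any placebo animal. CISH (-1.29) was not called, and SOCS3 (0.56) was called only without M1002 (0.72, adjusted p = 0.0283). Of 8 interferon regulatory factors, 5 rose, against 12.6% of all genes, and 1 fell, against 7.98%. IRF7, the master factor of IFN-α production, lay at 15.4 to 66.7 CPM (median 22.3) in placebo and 322 to 628 CPM (median 507) with wIFN-α (log2 fold change 4.08 ± 0.27). IRF1 (2.15), IRF8 (1.83), IRF4 (1.65) and IRF2 (1.13) rose with it.

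Sensors of foreign nucleic acid and related factors, taken as 1 list, rose in 12 of 14 tested cases, against 12.6% of all genes. None fell, and the median log2 fold change was 2.67. The endosomal RNA sensor TLR3 rose 31.2-fold, from 2.47 to 10.7 CPM (median 5.32) to 137 to 251 CPM (median 173). ZBP1 (5.82), IFIH1 or MDA5 (4.17), AIM2 (3.03), NLRC5 (2.80), IFI16 (2.55), DHX58 (1.40) and the adaptor MYD88 (0.87) rose as well, with every wIFN-α liver above every placebo liver, and DHX58 lost its call with the block (adjusted p = 0.239). The mitochondrial adaptor MAVS (-0.14) was not called.

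Antiviral effector genes rose in 37 of 39 tested cases, against 12.6% of all genes, with a median of 3.31. In 35 of the 39 every wIFN-α liver lay above every placebo liver, against 7.32% of all genes. MX1 (3.55), which traps viral nucleocapsids, OAS1 (5.38), OAS2 (4.52) and OAS3 (4.82), which sense double-stranded RNA, IFIT1 (5.26), the tetherin gene BST2 (3.69), ISG20 (3.03), the RNA editor ADAR (2.30), the nucleotide hydrolase SAMHD1 (1.67) and the translational brake EIF2AK2 or PKR (1.32) were among them. The remaining tested genes were SMC5 (-0.01) and SMC6 (-0.08), subunits of the complex that silences extrachromosomal DNA and that hepatitis B virus removes, at 19 to 26.6 and 39.9 to 65.5 CPM over all 18 livers. All 37 calls were also made with the block.

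The enzymes that attach the ubiquitin-like protein ISG15 to targets rose together, in 7 of 8 cases, against 12.6% of all genes, with a median of 4.14. ISG15 itself lay at 5.64 to 78.8 CPM (median 9.85) in placebo and 598 to 1198 CPM (median 939) with wIFN-α (log2 fold change 5.64 ± 0.53). Its activating enzyme UBA7 (4.42), conjugating enzyme UBE2L6 (1.73) and ligases HERC5 (4.17) and HERC6 (4.1) followed. Of 8 tested GBP and IRG GTPases, which attack vacuoles and viral envelopes, 8 rose, against 12.6% of all genes, with a median of 4.03. GBP1 was at 18.0 to 52.0 CPM (median 29.6) and 679 to 1034 CPM (median 847), and these genes are close copies whose reads may be shared. In the PARP family 8 of 14 rose, against 12.6% of all genes, led by PARP10 (3.82) and PARP14 (3.06), and 1 fell, against 7.98%. In the TRIM family 8 of 14 rose, led by TRIM21 (3.22), TRIM34 (2.98) and TRIM5 (2.18), and 0 fell. The DNA cytosine deaminases of the APOBEC list rose in 2 of 4 tested cases, APOBEC3H (1.23) and APOBEC3F (0.85). Both calls were lost with the block (adjusted p = 0.0841 and 0.348), and that of APOBEC3H when M1002 (0.93, adjusted p = 0.0901) or F1020 (0.94, adjusted p = 0.0896) was left out. APOBEC3A had 0 to 6 reads per liver in both groups.

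**Figure D3:**
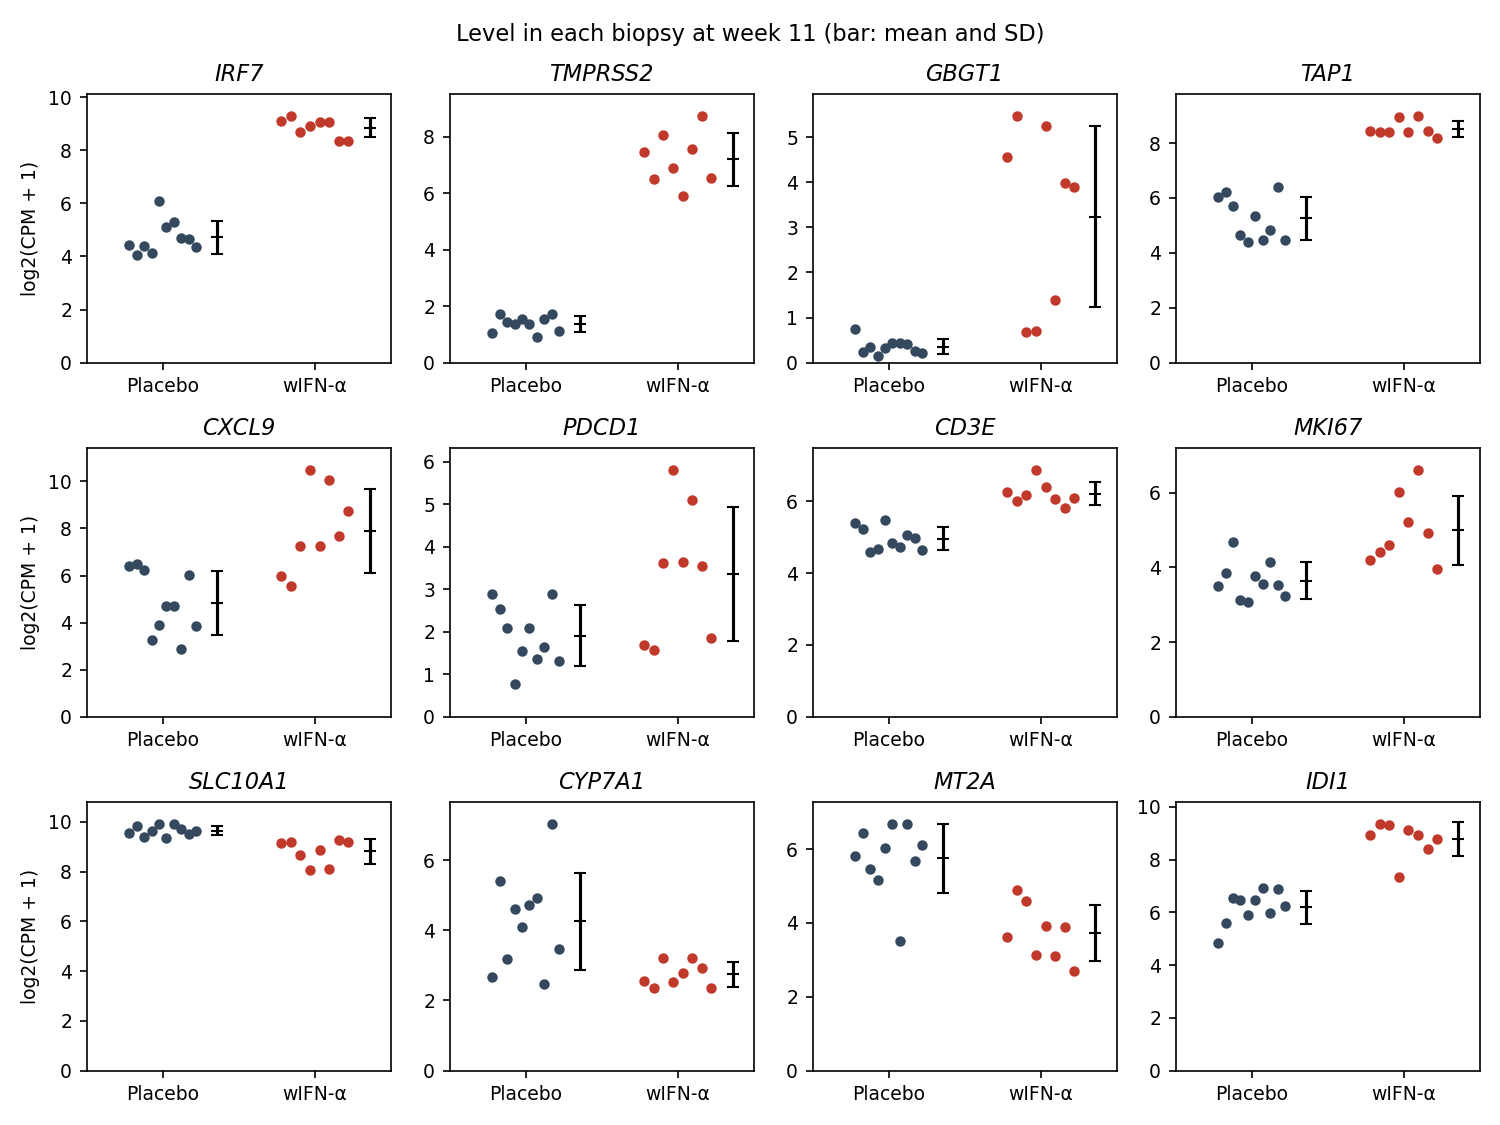
Level of 12 genes in each liver at week 11 as log2(CPM + 1), with the mean and SD of the 10 placebo (dark) and 8 wIFN-α (red) livers beside the points. IRF7, TMPRSS2, TAP1, CD3E, SLC10A1 and IDI1 separate the groups, whereas GBGT1, CXCL9, PDCD1, MKI67, CYP7A1 and MT2A overlap.

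Antigen presentation by class I molecules rose. Of 16 tested genes 13 rose, against 12.6% of all genes, and 0 fell, with a median log2 fold change of 1.41. The peptide transporter TAP1 lay at 20.3 to 83.4 CPM (median 33.7) in placebo and 288 to 509 CPM (median 342) with wIFN-α (log2 fold change 3.14 ± 0.29, adjusted p = 6.87e-08). HLA-B (2.19), HLA-C (2.26) and HLA-E (2.16), class I heavy chains, rose, but woodchuck reads placed on human-named class I genes may be shared. TAP2 (2.39), TAPBP (1.25) and the light chain B2M (1.18) also rose. B2M had an adjusted p of 0.0502 with the block and was called in the block without F1016 and F1018. The general chaperones CALR (-0.13), CANX (0.29) and PDIA3 (0.31) were not called.

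The immunoproteasome, the variant that cuts peptides for class I molecules, rose in 6 of 6 cases, against 12.6% of all genes, with a median of 1.81. Its catalytic subunit PSMB9 went from 8.12 to 28.9 CPM (median 12.8) to 74.1 to 172 CPM (median 103). PSMB8 (2.48), PSMB10 (2.32) and the activator PSME2 (1.29) rose beside it. Of 25 constitutive proteasome genes 3 rose, against 12.6% of all genes, and 0 fell, with a median of 0.11. The standard catalytic subunits PSMB5 (0.02), PSMB6 (0.06) and PSMB7 (-0.07) were not called. The clearest of the 3 that rose were PSMA2 (1.19) and PSMA1 (0.81). Class II presentation rose in 4 of 12 cases, against 12.6% of all genes, with a median of 0.57. RFX5 (1.10), a class II promoter factor, lay above the placebo range in every animal and held with the block. The other 3 calls were lost with it, at adjusted p of 0.150 to 0.323, and the list had 1 call without F1020 and 2 without M1002. HLA-DRA (0.40) was not called, and CIITA (0.75), the class II master factor, just missed the threshold (adjusted p = 0.0552). CIITA was called without F1013, F1014, M1008 or M1012 (0.82 to 0.85), and also by DESeq2, with the deepest run only, with lane as a covariate, in the fit of all weeks and without the muscle biopsies (0.74 to 0.85).

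Genes that respond to IFN-γ rose in 17 of 20 cases, against 12.6% of all genes, with a median of 2.48. Many of them are also ISGs of IFN-α. CXCL9, a chemokine for activated T cells, lay at 6.45 to 89.1 CPM (median 25.1) in placebo and 46.1 to 1444 CPM (median 179) with wIFN-α (log2 fold change 3.46 ± 0.71, adjusted p = 7.95e-04). F1020 and M1002 reached 1444 and 1052 CPM, while F1014 and F1013 at 46.1 and 62.6 CPM lay within the placebo range. By contrast CXCL10 separated the groups, at 19.2 to 115 CPM (median 41.4) and 2257 to 4888 CPM (median 3964). IDO1, the tryptophan-degrading enzyme, rose from 0.434 to 5.45 CPM (median 2.43) to 18.8 to 154 CPM (median 31.4). PLA2G2A, a secreted phospholipase, lay at 0.479 to 3.98 CPM (median 2.04) and 3.81 to 61.1 CPM (median 9.49), with F1020 highest. CIITA and SLAMF8 (0.30) were not called. IFNG itself was too low for the test. It had 0 to 8 reads in each placebo liver, 115 reads in F1020, 41 in M1002 and 0 to 14 in the other 6 wIFN-α livers.

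Of 24 tested chemokines and receptors 11 rose, against 12.6% of all genes, and 1 fell, against 7.98%, with a median of 1.02. CXCL11 (4.83), the monocyte attractants CCL8 (3.13) and CCL2 (2.34), CXCL16 (2.41) and CX3CL1 (1.14) lay above the placebo range in all 8 animals. CCL5 (0.52), CXCR3 (0.96) and CXCR6 (0.35) were not called by this test. The gene that fell, CCR1 (-0.98), lost its call without any of F1013, F1014, F1015, F1016, F1018, F1020, M1001, M1003, M1008, M1011 or M1012, at adjusted p of 0.0511 to 0.0830. CXCR3 was called without any of F1013, F1022, M1008 or M1012 (1.05 to 1.09). With the block 8 of the 12 calls held. Of 15 cytokines and regulators 7 rose and 1 fell, beside the same shares of all genes. TNF lay at 0.0737 to 1.69 CPM (median 0.500) in placebo and 2.39 to 11.5 CPM (median 3.93) with wIFN-α, again highest in F1020 and M1002 (log2 fold change 3.14 ± 0.42, adjusted p = 8.70e-06). IL15 (1.65), a survival factor of NK and memory T cells, and IL18BP (1.88), which neutralises IL-18, also rose. IL18 (-0.84) fell, a call lost with the block (adjusted p = 0.184). With the block 5 of the 8 calls held. IL10 (-0.04), TGFB1 (0.23) and IL1B (-0.09) were not called.

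T cell genes were higher on average but the groups overlapped for most of them. Of 24 tested genes 15 rose, against 12.6% of all genes, and 0 fell, with a median of 1.00. The summed list, without TMM scaling, lay at 139 to 448 CPM (median 174) with wIFN-α and at 88.4 to 177 CPM (median 119) with placebo. CD3E, a chain of the T cell receptor complex, was the clearest, at 23.1 to 43.3 CPM (median 29.0) in placebo and 55.0 to 117 CPM (median 69.1) with wIFN-α (log2 fold change 1.28 ± 0.15, adjusted p = 1.73e-06). The interleukin receptor chain IL2RB (1.71) also separated the groups, and CD2 (1.43), ZAP70 (1.42) and LCK (0.92) rose with overlap. CD8A (0.65), CD8B (0.27), CD4 (-0.46) and FOXP3 (0.75) were not called. Without F1020 the count of calls was 8, and without the muscle and skin biopsies 11. With the block only 1 of the 15 held, the others having adjusted p of 0.0509 to 0.625. In the block without F1016 and F1018, 7 of the 15 held.

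Receptors and ligands that inhibit or costimulate T cells, here called checkpoints, rose in 10 of 13 tested cases, against 12.6% of all genes, with a median of 1.63. PDCD1, which encodes PD-1, lay at 0.700 to 6.43 CPM (median 2.68) in placebo and 1.98 to 55.0 CPM (median 11) with wIFN-α. F1020 (55.0 CPM) and M1002 (33.1 CPM) were far above the rest, F1018, F1022 and M1003 were between 10.7 and 11.5 CPM, and F1014, F1013 and M1012 lay inside the placebo range (log2 fold change 2.34 ± 0.60, adjusted p = 0.00472). With the block its adjusted p was 0.183. Its ligand CD274, or PD-L1 (2.38), the galectin LGALS9 (2.91), the costimulator CD86 (2.38) and TNFRSF14 (1.07) instead rose in every animal beyond the placebo range. HAVCR2 (0.42) and BTLA (0.74) were not called. With the block 6 of the 10 calls held.

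Cytotoxic and NK cell genes rose in 8 of 16 cases, against 12.6% of all genes, with a median of 0.89. GZMA, which encodes granzyme A, lay at 0.512 to 1.58 CPM (median 0.935) and 1.51 to 18.3 CPM (median 4.62). F1020 was highest, and F1014 overlapped the placebo range (log2 fold change 2.60 ± 0.41, adjusted p = 6.00e-05). Perforin, PRF1 (2.28), NKG7 (1.40) and the NK receptor KLRD1 (0.94) also rose, and KLRD1 showed no overlap. GZMB (0.82), GZMK (0.19), KLRB1 (0.42) and NCAM1 (-0.09) were not called. Of the 8 calls 3 held with the block and 5 in the block without F1016 and F1018.

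Death receptor and apoptosis genes rose in 18 of 26 cases, against 12.6% of all genes, and 0 fell. Every wIFN-α liver lay above every placebo liver in 13 of them, against 7.32% of all genes. MLKL, which forms the membrane pores of necroptosis, was at 7.20 to 14.4 CPM (median 9.94) in placebo and 125 to 172 CPM (median 142) with wIFN-α, a log2 fold change of 3.82 ± 0.12 (adjusted p = 1.31e-14). The death ligand TNFSF10 or TRAIL (2.49), the inflammatory caspase CASP1 (2.52), the pore opener BAK1 (2.38), the kinase RIPK1 (2.21), the receptor FAS (1.6) and GSDMD (1.09), the pore protein of pyroptosis, rose in all animals. XIAP (0.70), an inhibitor of caspases, rose too. BCL2 (-0.42), BCL2L1 (-0.04), MCL1 (0.13) and CASP8 (0.33) were not called. Of 12 kynurenine pathway genes, IDO1 rose, ACMSD (-0.75), which diverts tryptophan carbon from NAD synthesis, fell, and the other 10 were not called, among them the liver's constitutive entry enzyme TDO2 (-0.18). The ACMSD call was lost with the block (adjusted p = 0.135) and, by falling short of the fold, without the muscle and skin biopsies (-0.54, adjusted p = 0.0435).

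Other leukocyte lists held fewer calls, where 12.6% of all genes were called higher and 7.98% lower. Of 15 B and plasma cell genes 4 rose and 1 fell, with a median of 0.27. Without F1020 or without M1002 only 2 were called higher. With the block 1 of the 5 calls held, the others at adjusted p of 0.101 to 0.671, and 3 held without F1016 and F1018. IRF4 (1.65) rose in every setting run. CD22 (1.41) rose but lost its call with the block (adjusted p = 0.118), and CD79A (0.31) and MZB1 (0.51) were not called. Of 20 Kupffer cell and macrophage genes 3 rose and 1 fell, and 2 of these 4 calls held with the block. SIGLEC1 (1.47), a known ISG of macrophages, rose in all settings run. The scavenger receptor CD163 lay at 0.624 to 14.7 CPM (median 2.26) in placebo and 0.0440 to 2.33 CPM (median 0.838) with wIFN-α (log2 fold change -1.75 ± 0.64, adjusted p = 0.0392). This call was lost without any of F1014, F1015, F1016, F1018, F1020, F1022, M1002 or M1008, at adjusted p of up to 0.117, and without F1021 the list had 2 lower calls. CD68 (0.38), MARCO (0.46) and CLEC4F (0.22) were not called. Of 15 neutrophil genes 4 rose and 1 fell, with 4 lower without F1020 and 2 lower without F1013, F1019 or F1024. With the block 3 of the 5 calls held, and 5 did without F1016 and F1018. CSF3R (1.87), the receptor of the granulocyte growth factor, and PGLYRP1 (1.30) rose, while S100A8 (-0.05), S100A9 (0.25) and MPO (-0.99) were not called.

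Genes of cell division rose. Of 25 tested mitosis genes 23 rose, against 12.6% of all genes, and 0 fell, with a median of 1.61, but the groups overlapped for all but CDC20. CDC20, the activator of the anaphase-promoting complex, lay at 0.516 to 3.97 CPM (median 1.80) in placebo and 4.00 to 40.6 CPM (median 9.36) with wIFN-α (log2 fold change 2.80 ± 0.44, adjusted p = 5.12e-05). The proliferation marker MKI67 lay at 7.40 to 24.5 CPM (median 10.7) and 14.4 to 97.1 CPM (median 26.4). M1002 was highest in both genes, F1020 reached 64.4 CPM in MKI67, and M1012, F1013, F1014 and F1018 overlapped the placebo livers there. CDK1 (2.17), the kinesin KIF20A (1.80), FOXM1 (1.87), BUB1B (1.86) and TOP2A (1.58) also rose. With the block 2 of the 23 calls held, the others at adjusted p of 0.0537 to 0.436, and without F1016 and F1018 10 held. The mitosis list also had 23 calls without the muscle and skin biopsies.

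Replication and G1/S genes rose in 11 of 26 cases, against 12.6% of all genes, with a median of 0.52 and a highest log2 fold change of 3.16. Cyclin E2, CCNE2 (1.78), showed no overlap, and MCM5 (1.18) and RRM2 (1.16) rose with overlap. PCNA (0.30), TYMS (0.03) and CCND1 (0.41) were not called. With the block 6 of the 11 calls held. Of 13 genes of the DNA damage response and cell cycle inhibitors 5 rose, among them GADD45B (1.06) and TP53INP1 (0.61), of which 3 were called without F1014, 1 held with the block and 5 in the block without F1016 and F1018, while MDM2 (0.13) and CDKN1A (0.19) were not called.

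Of 18 listed genes for proteins secreted by hepatocytes 0 were called, with a median of 0.06 and log2 fold changes from -0.47 to 0.45. They included TTR (0.21), APOA1 (0.00), SERPINA1 (-0.10) and ALB (-0.08 ± 0.13). Some genes of the complement, coagulation and acute phase lists, given below, were called. ALB lay at 29084 to 38252 CPM (median 33868) in placebo and 23339 to 44513 CPM (median 30290) with wIFN-α. Of 21 liver transcription factors 2 rose, against 12.6% of all genes, and 3 fell, against 7.98%. The factors that fell were nuclear receptors. NR1I3, or CAR, which induces drug-metabolising enzymes, lay at 43.3 to 83.1 CPM (median 71.7) in placebo and 21.1 to 51.1 CPM (median 35.4) with wIFN-α, and 7 of 8 wIFN-α livers were below all placebo livers (log2 fold change -1.04 ± 0.15, adjusted p = 1.90e-05). PPARA, the fatty acid receptor, lay at 102 to 149 CPM (median 121) and 57.6 to 90.7 CPM (median 71.1), with no overlap (-0.73 ± 0.10, adjusted p = 1.58e-05). Their partner RXRA (-0.65) fell as well. With the block the adjusted p was 0.189 for NR1I3 and 0.231 for PPARA, and RXRA kept its p at 0.0139 but fell short of the fold. HNF4A (-0.19) and CEBPA (-0.41) were not called, and HNF4G (1.03) rose. The second factor that rose was not called without F1014, F1020 or F1022.

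Among 32 tested cytochrome P450 genes and their reductase 10 fell, against 7.98% of all genes, and 2 rose, with a median of -0.44. CYP2A6, a drug-metabolising enzyme, lay at 485 to 1996 CPM (median 670) in placebo and 200 to 511 CPM (median 284) with wIFN-α, and 7 of 8 wIFN-α livers were below all placebo livers (log2 fold change -1.59 ± 0.28, adjusted p = 1.82e-04). CYP2B6 (-0.96), CYP2U1 (-0.98), CYP3A4 (-0.69) and CYP2E1 (-0.69) also fell, and CYP1A2 (-0.05) and CYP2D6 (-0.32) were not called. CYP2R1, the hydroxylase that makes 25-hydroxyvitamin D, went the other way. It lay at 2.06 to 4.1 CPM (median 3.18) in placebo and 15 to 36.1 CPM (median 21.6) with wIFN-α, a log2 fold change of 2.89 ± 0.18 (adjusted p = 9.70e-11). With the block 3 of these 12 calls held, the others at adjusted p of 0.0666 to 0.809, and in 1 fit of all weeks 4 genes were called lower. Without F1013, F1018 or M1003 only CYP2R1 was called higher. Of 32 phase II enzymes 0 rose and 1 fell.

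Bile acid genes fell in 5 of 23 cases, against 7.98% of all genes, and rose in 2, with a median of -0.30. CYP7A1, the rate-limiting enzyme of bile acid synthesis, lay at 4.49 to 130 CPM (median 19.7) in placebo and 4.08 to 8.33 CPM (median 5.41) with wIFN-α. The wIFN-α livers formed a narrow band at the bottom of a wide placebo range, with placebo animal M1008 highest and M1005 at 4.49 CPM (log2 fold change -2.32 ± 0.56, adjusted p = 0.00303). CYP8B1 (-1.01), which sets the share of cholic acid, fell in the same manner. SLC10A1, or NTCP, which takes up bile acids and is the entry receptor of human hepatitis B virus, lay at 662 to 974 CPM (median 800) in placebo and 267 to 626 CPM (median 518) with wIFN-α, with no overlap. F1020 and M1002 were lowest at 267 and 273 CPM (log2 fold change -0.78 ± 0.16, adjusted p = 8.91e-04). The conjugating enzyme BAAT (-0.71) and the uptake transporter SLCO1A2 (-1.10) fell, the phospholipid exporter ABCB4 (0.81) rose, and the bile salt export pump ABCB11 (-0.31) was not called. With the block none of the 7 calls held, at adjusted p of 0.0666 to 0.646 (SLC10A1 -0.82, adjusted p = 0.583), and without F1016 and F1018 5 of them held.

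Lipid genes were mostly near 0, where 12.6% of all genes were called higher and 7.98% lower. Of 19 fatty acid synthesis genes 1 rose and 2 fell, among them MLXIPL (-0.75), the carbohydrate-response factor. With the block none of these 3 calls held, at adjusted p of 0.0582 to 0.564, the highest being that of MLXIPL, and 1 held without F1016 and F1018. The gene that rose was not called without F1018, nor was the other gene that fell without M1001. FASN (0.06) and SCD (-0.02) were not called. Of 25 cholesterol synthesis genes 2 rose and 1 fell, and 4 rose without F1020. IDI1, an isomerase of the isoprenoid route, lay at 27.4 to 121 CPM (median 81.5) in placebo and 162 to 656 CPM (median 486) with wIFN-α, with no overlap (log2 fold change 2.59 ± 0.27, adjusted p = 4.02e-07). INSIG1 (0.96), a sterol sensor, rose but lost its call with the block (adjusted p = 0.112), FDFT1 (-0.72), the first enzyme of the sterol branch, fell, and SREBF2 (-0.03) was not called. Of 24 genes of fatty acid oxidation and ketogenesis 0 rose and 3 fell, PPARA among them with EHHADH (-0.71), and none of these 3 held with the block (adjusted p of 0.0876 to 0.458). CPT1A (0.16) was not called. Respiratory chain genes gave 0 calls in 28 tested, with a median of -0.01. Of 41 ribosomal protein genes 2 fell, RPL4 (-0.81) and RPS2 (-0.62), with a median of -0.33, and the count was 6 without M1008, 5 without F1021 and 1 without F1013, F1017 or M1005. The call of RPS2 was lost with the block (adjusted p = 0.247).

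Nitrogen metabolism genes fell in 5 of 23 cases, against 7.98% of all genes, and rose in 1, with a median of -0.38. HAL (-1.19), the first enzyme of histidine breakdown, SDS (-0.82), GOT1 (-0.71) and NAGS (-0.66), which makes the activator of the urea cycle, fell, and glutamine synthetase, GLUL (0.86), rose. CPS1 (-0.29), OTC (-0.11) and ASS1 (-0.38) were not called. None of the 6 calls held with the block, at adjusted p of 0.0818 to 0.581, and 4 held without F1016 and F1018. Of 26 genes of gluconeogenesis and glycolysis 1 rose, against 12.6% of all genes, and 2 fell, against 7.98%. HK3, a hexokinase of leukocytes, lay at 1.58 to 5 CPM (median 3.08) in placebo and 10.8 to 23.6 CPM (median 14.8) with wIFN-α. PCK1, the gate of gluconeogenesis, lay at 241 to 1749 CPM (median 831) and 180 to 715 CPM (median 322), a log2 fold change of -1.12 ± 0.38 (adjusted p = 0.0256) that was not called without F1015 (-0.94, adjusted p = 0.0508) or with the block (adjusted p = 0.783). Without F1020 only 1 gene of the list was called lower, and without any of F1015, F1018, F1019, F1024, M1001, M1002, M1003 or M1011 2 were called higher. G6PC (0.37) and FBP1 (-0.25) were not called.

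Of 31 complement genes 5 rose, against 12.6% of all genes, and 0 fell, with a median of 0.18. C2 (0.87) and MBL2 (0.80), the initiator of the lectin pathway, showed no overlap, and factor B, CFB (0.84), rose in 7 of 8 animals beyond the placebo range. C3 (0.06), C5 (0.22) and C9 (-0.02) were not called. With the block 1 of the 5 calls held, and 5 did without F1016 and F1018. Without F1019 or M1011 3 genes were called. Of 26 coagulation genes 1 rose and 2 fell, or 1 without M1002, where 12.6% of all genes were called higher and 7.98% lower. PLAT (1.72), the tissue plasminogen activator, rose, and F3, or tissue factor, fell from 2.92 to 16.2 CPM (median 4.13) in placebo to 1.35 to 2.88 CPM (median 2.11), with no overlap (log2 fold change -1.32 ± 0.31, adjusted p = 0.00220, and adjusted p = 0.0814 with the block). Fibrinogen genes FGA (0.12), FGB (0.08) and FGG (0.00) and prothrombin, F2 (0.00), were not called. Of 22 acute phase and iron genes 2 rose, LBP (1.06) and ITIH4 (0.69), and 1 fell, a count that was 0 without F1015, F1020 or M1002 and 2 or 3 without any of F1013, F1014, F1017, F1018, F1022, F1024, M1005 or M1008, whereas CRP (0.36), SAA1 (-0.34) and hepcidin, HAMP (0.17), were not called. With the block 1 of the 3 calls held, and ITIH4 had an adjusted p of 0.694.

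Stellate cell and collagen genes fell in 4 of 25 cases, against 7.98% of all genes, with a median of -0.66, and the count depended on M1012. COL1A1, the main fibrillar collagen, lay at 18.4 to 1123 CPM (median 95.5) in placebo and 16.9 to 319 CPM (median 29.2) with wIFN-α, the highest wIFN-α value being that of M1012, whose biopsy held most muscle (log2 fold change -1.99 ± 0.83, adjusted p = 0.0664). Without M1012 15 of these genes were called lower, without F1021 7, without any of F1014, F1017, F1018, F1022 or M1005 2, without the muscle and skin biopsies 12, and with the block 0. Muscle reads were at the same time more frequent in placebo, where 8 of 10 biopsies exceeded 0.2% against 3 of 8 with wIFN-α, and the part of muscle or its sheath in this result was not tested. The retinol esterase LRAT (-1.0), which marks quiescent stellate cells, fell, and DES (-0.34) and PDGFRB (-0.07) were not called. Of 12 endothelial genes 2 rose, LYVE1 (1.26) and FLT1 (0.77), against 12.6% of all genes. Another 2 fell, VWF (-1.07) and KDR (-1.01), against 7.98% of all genes. Of these 4 genes 1 held with the block and 4 without F1016 and F1018. Skeletal muscle genes gave 0 calls in 19 tested. Of 6 erythrocyte genes 2 rose, the α-globin copies HBA1 (1.61) and HBA2 (1.6), and 1 fell, and the 2 calls were lost under limma-voom, with the block, without the muscle and skin biopsies and without any of 10 animals (F1016, F1017, F1019, F1021, F1022, M1001, M1005, M1008, M1011 and M1012). Of 13 fetal and hepatoma genes 1 rose, SOX9 (0.91), and AFP (-0.88) and GPC3 (-0.21) were not called.

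Few stress genes were called. Of 23 genes of the unfolded protein and amino acid responses 2 rose and 0 fell, ATF3 (2.89), which is also induced by inflammatory signals, and ERN1 (0.98), the sensor kinase IRE1, while HSPA5 (-0.16), DDIT3 (0.03) and ATF4 (-0.14) were not called. Among 16 metallothionein and oxidative stress genes 3 rose, against 12.6% of all genes, and 5 fell, against 7.98%. The mitochondrial dismutase SOD2 (2.21), HMOX1 (1.69) and GCLC (0.83) rose, HMOX1 losing its call with the block (adjusted p = 0.293). The genes that fell were the 5 metallothioneins MT2A, MT1A, MT1F, MT1E and MT1G, with log2 fold changes of -2.13, -2.13, -2.04, -2.03 and -1.45. These encode small zinc-binding proteins and are close copies, so reads may be shared among them. MT2A lay at 10.4 to 102 CPM (median 59.6) in placebo and 5.47 to 28.7 CPM (median 12.5) with wIFN-α. Only placebo animal M1001 at 10.4 CPM lay among the wIFN-α livers, the other placebo livers starting at 34.5 CPM (log2 fold change -2.13 ± 0.39, adjusted p = 2.44e-04). With the block its adjusted p was 0.158, and none of the 5 held, while all 5 held without F1016 and F1018.

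Clock genes fell in 7 of 18 cases, against 7.98% of all genes, and rose in 3, against 12.6%, with a median of -0.35. The output factors HLF (-1.35) and TEF (-0.99) and the repressor CRY2 (-0.71) fell, and BHLHE40 (1.15) and NFIL3 (1.02), a repressor of the same target sites, rose. ARNTL (0.04), CLOCK (-0.08) and PER1 (0.05) were not called. Without F1015 4 genes were called lower, and without the muscle and skin biopsies 5. With the block 3 of the 10 calls held. The hour of each biopsy is not given in the sources used here.

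The lowest fold changes at week 11 were those of skin genes and rested on placebo animals F1015 and F1017. KRT1, a keratin of the epidermis, lay at 0.273 to 1357 CPM (median 0.484) in placebo and 0.184 to 2.61 CPM (median 0.563) with wIFN-α. The CPM of KRT1 in F1017 was 1015, and no other liver exceeded 2.61. The log2 fold change of -8.12 ± 2.21 became 0.72 without the muscle and skin biopsies. KRT15 (-5.00), SFN (-4.33) and KRT10 (-3.51) behaved alike, and 5 of 7 tested skin genes were called lower with all biopsies and 0 without these 3, when 2 were called higher. Among the 15 lowest, NIPAL4, LRP4, ADH7 and LYPD3 were also called without these 3 biopsies. NIPAL4, a magnesium transporter of skin, was then at -3.0 ± 0.43 (adjusted p = 5.04e-05), beside -4.21 ± 0.72 with all 18 biopsies. The log2 fold changes of LRP4 (-2.31), ADH7 (-1.57) and LYPD3 (-0.90) without them were nearer 0 than with all biopsies (-3.25, -3.93 and -4.50). The genes that were lowest without the 3 biopsies and called in both sets included the desaturase relative FADS6 (-2.67), the procollagen peptidase ADAMTS14 (-2.55), FIBIN (-2.54), CYP7A1 (-2.52) and AIF1L (-2.42).

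**Figure D4:**
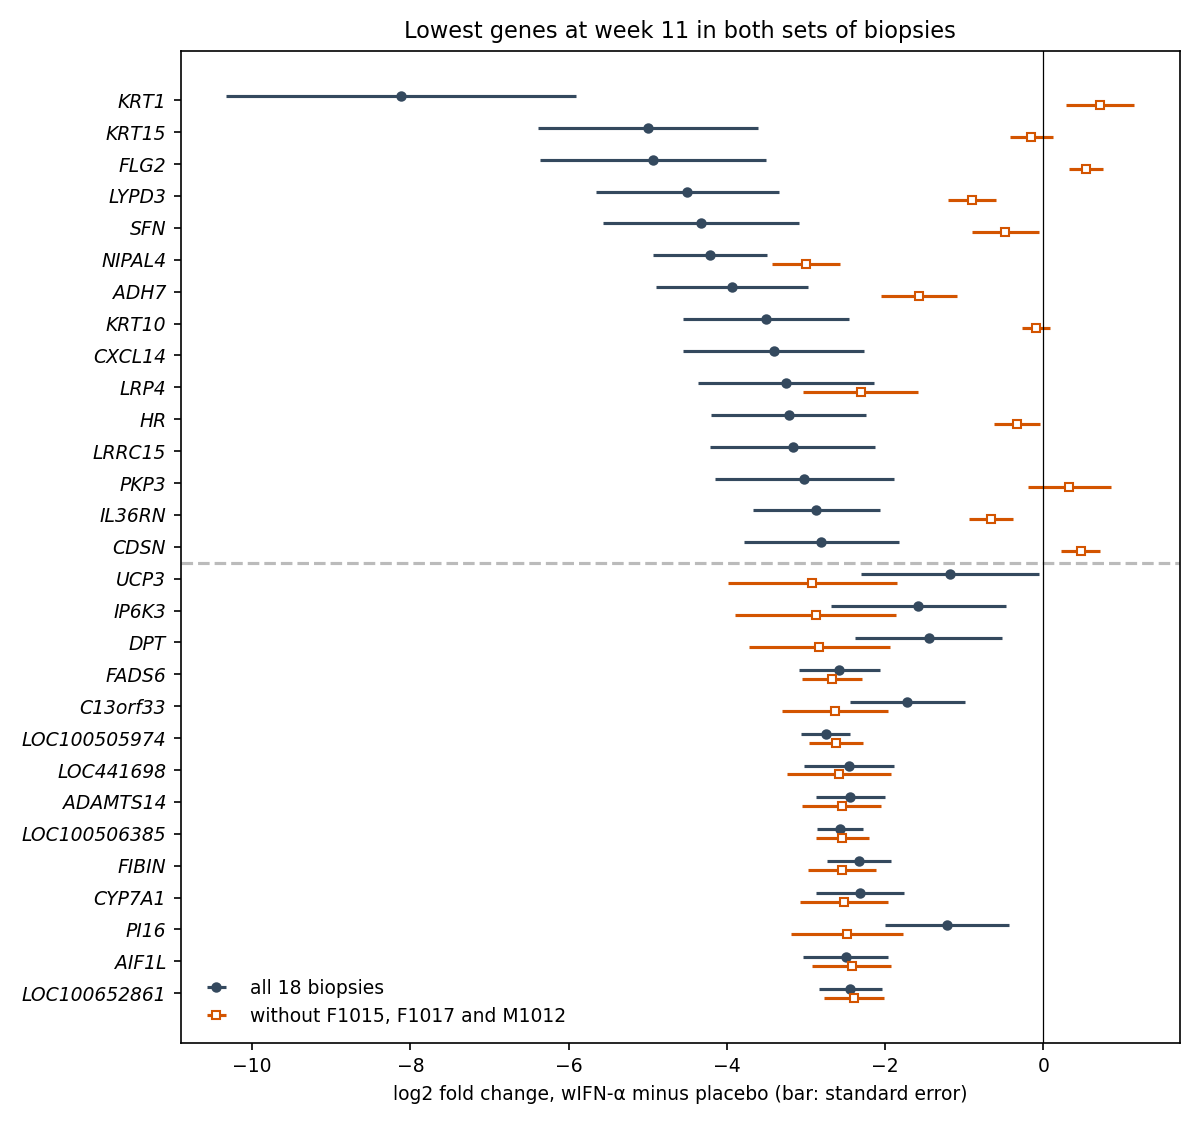
Log2 fold change (wIFN-α minus placebo, bars SE) of the 15 lowest genes at week 11, above the dashed line, and of the lowest genes without F1015, F1017 and M1012, below it, each with all 18 biopsies (filled) and without these 3 (open). Skin genes such as KRT1 move from -8.12 to near or above 0, while FADS6 and CYP7A1 hardly move. CXCL14 and LRRC15 were too low to be tested without the 3 biopsies and have no open point.

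The effect at week 11 was then compared with that of the same group at other weeks, each tested as the difference between the effects. The main test took repeated biopsies of 1 animal as separate samples, and the blocked fit kept the animal. Against weeks 0 and 3, at the low dose, 244 of 15646 genes differed at an adjusted p under 0.05, with a more positive effect at week 11 in 198 (1.27%) and a more negative one in 46 (0.294%). Dose, time on treatment and the animals still sampled changed together and cannot be told apart. LGALS13 had the largest positive difference (3.29 ± 0.62, adjusted p = 0.00140), with effects of 2.43, 2.42, 4.95, 5.77 and 5.29 at weeks 0, 3, 7, 11 and 15. PLA2G2A (2.93), AREG (2.62), a growth factor of the EGF family, PDCD1 (2.42) and the signalling protein RASGRP3 (2.41) followed. The effect on PDCD1 was -0.29, 0.02, 0.30, 2.34 and 2.66 over these weeks, and that on RASGRP3 was 1.07, 1.08, 2.66, 3.52 and 3.68.

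Of the mitosis genes 21 of 25 had a more positive effect at week 11 than at weeks 0 and 3. The list median was -0.78 at week 0, 0.47 at week 3, 0.28 at week 7, 1.61 at week 11 and 2.26 at week 15, and 14 of the genes had fallen at week 0. Without M1002 the number was 8. Replication genes differed in 11 of 26 cases, in 0 without M1002 and in 5 without F1020. Class I presentation genes differed in 4 of 16 cases, among them HLA-B, HLA-C and HLA-E, in 2 without F1018, F1020 or M1002, and in 8 with the block. Antiviral effectors differed in 4 of 39 cases, with list medians of 3.22 at week 0, 2.53 at week 3 and 3.31 at week 11. Among the most negative differences were those of NIPAL4 (-4.43), MT1M (-1.71), GJB2 (-1.64) and MPZL2 (-1.59). The log2 fold change of GJB2 at week 11 itself lay between -0.52 and 0.17 over the settings run. Skin RNA also varied between weeks, with skin list medians of -3.92, 3.19 and -3.51 at weeks 0, 3 and 11. The median difference of the skin list was -5.23, and the part of skin in these results was not tested. With the animal as a block 754 genes differed, 466 (2.98%) more positive and 288 (1.84%) more negative, 239 of the 244 among them, but NIPAL4 and GJB2 (adjusted p = 0.0666 and 0.0724) were not.

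**Figure D5:**
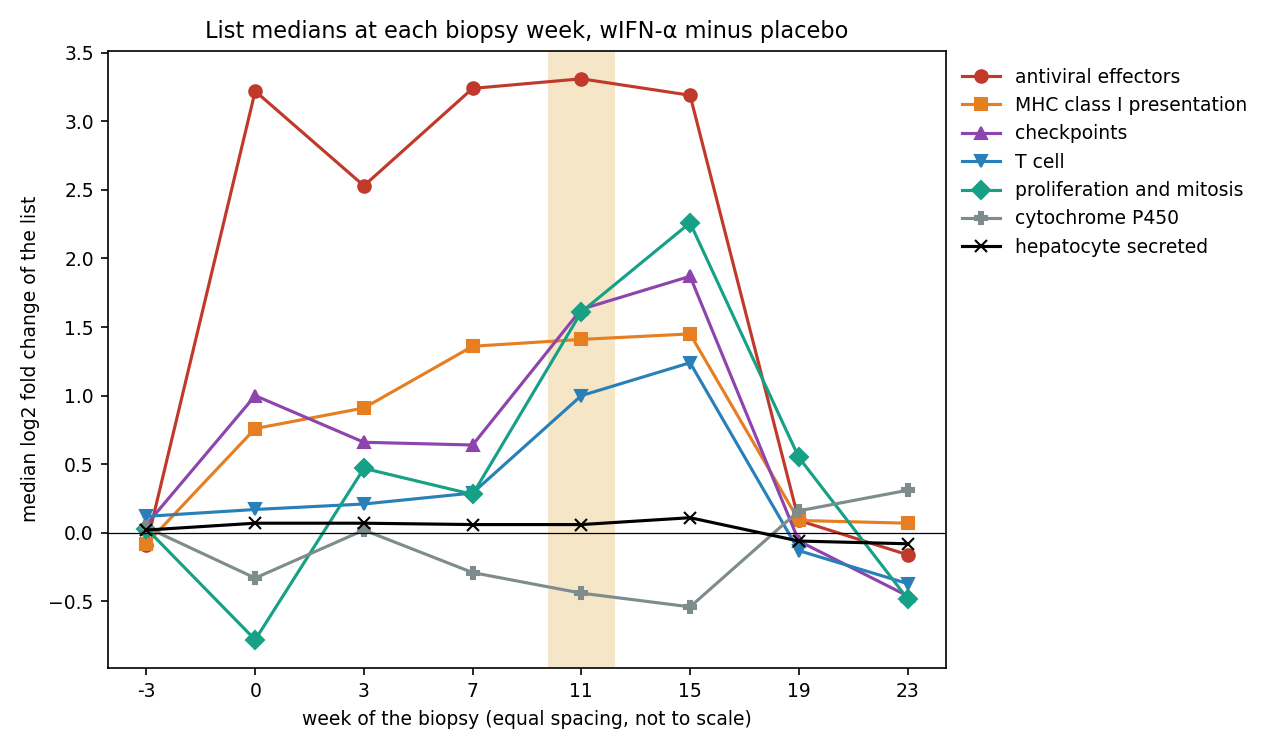
Median log2 fold change (wIFN-α minus placebo of the same week) of 7 gene lists at each biopsy week, spaced evenly, with week 11 shaded. Antiviral effectors are high from week 0 to week 15. Mitosis, checkpoint and T cell lists stand higher at weeks 11 and 15 than before. The median of the hepatocyte secreted list stays near 0. The antiviral list returns to near 0 at weeks 19 and 23, after dosing.

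Against week 7, the first biopsy at the high dose, 0 of 15381 genes differed by edgeR or by DESeq2, with 900 (5.85%) at an unadjusted p under 0.05 in edgeR. With the animal as a block 13 genes did, 9 (0.0585%) more positive, led by HCN2 (1.56), SORCS2 (1.19) and KCNAB2 (1.17), and including RASGRP3 (0.98), and 4 (0.0260%) more negative, including RWDD2A (-1.55) and the long non-coding RNA NEAT1 (-1.05). Against week 15 0 of 15456 genes differed, with 181 at an unadjusted p under 0.05, and 0 with the block, with 1169. MT2A was called at week 11 and at none of weeks 0, 3, 7 and 15, with effects of -0.58, -2.13 and -0.72 at weeks 7, 11 and 15, but neither difference passed the test (adjusted p = 0.762 against week 7 and 1.0 against week 15). At weeks 19 and 23, after dosing, 0 genes were called by edgeR, with 6 wIFN-α against 5 and 9 placebo livers and with 1859 of 14715 and 2416 of 14956 genes at an unadjusted p under 0.05.

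The effect of wIFN-α at week 11 was also compared between the 3 male and 5 female treated animals, with 4 and 6 placebo animals. No gene of 15547 differed by sex in edgeR, with 870 (5.60%) at an unadjusted p under 0.05, and DESeq2 called 1. With these numbers the test found 19 of 100 genes that had been given a log2 difference of 1 in simulated counts, and 70 of 100 with a difference of 2. DESeq2 found 33 and 80 of these, but called 29 unchanged genes where edgeR called 4.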

How the data were processed

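Liver biopsies were profiled by poly(A) RNA sequencing with paired reads of 50 nucleotides. The authors aligned the reads to a woodchuck transcriptome assembly with Bowtie2 and counted them per gene with SAMtools, and the labels also name CASAVA, FastQC and DESeq. The deposited files give, for each gene, an RPKM value computed by the authors, which was not used, and expected counts, of which 118 of 3368022 entries above 0 were not whole and were rounded. The 24 runs of the 18 biopsies were summed per animal. Runs of 1 biopsy were the same material and counted once. The WHV entry was kept out of the library sizes, and no row without a gene was found.

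Genes were filtered with filterByExpr and normalised by TMM, and groups were compared with the quasi-likelihood test of edgeR 4.0.16 in R 4.3.3 with Benjamini-Hochberg adjustment. All adjusted p-values in the text come from this test unless another tool is named. Levels of single genes are TMM-scaled CPM, while summed levels of lists, shares of reads and ratios of summed reads use the gene reads without that scaling. They are not per gene length and are compared between animals only. Fold changes are wIFN-α over placebo. WHV reads were compared over animals by a two-sided exact permutation test (scipy 1.17.1). Counting intervals are 95% intervals and cover counting error only. The animals are separate, so p-values measure the spread between animals. In simulated counts of 14966 genes the test found 82 of 100 genes changed by 1 on the log2 scale and 96 of 100 changed by 2, with 3 other calls.

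Alternatives were DESeq2 1.42.0, limma-voom (limma 3.58.1), RLE size factors, no filter, the deepest run only, animal M1004 included, sex or lane as a covariate, all weeks fitted together, a block for the animal, a fold above 2, muscle biopsies left out and each animal left out. Leaving out muscle and skin biopsies together, the block without F1016 and F1018, and the WHV change from week 0 were chosen after seeing the data. The pairing of weeks -3 and 11 comes from the animal numbers in the labels. Lane was the lane number in the labels, which can stand for more than 1 physical lane. Deviations from the group mean correlated with a median r of 0.305 over 18 pairs of biopsies of the same animal, 11 of them above 0.1, and -0.0484 over 146 pairs of different animals.

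Named genes were the 15 called genes with the highest and the 15 with the lowest fold changes, given an average of 1 CPM or more, members of 52 gene lists, and the 5 largest differences in each direction of each comparison between weeks. Some genes that this rule takes in are not reported here. The genes of the blocked week 7 comparison and the uneven low-count genes were named after their values were seen. Members and lists were chosen with earlier results of these data known. Response groups are not in the labels and were not used. Sequences and positions were not used here, as the woodchuck assembly was not among the references.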

Additional observations from a re-analysis of the deposited data

Results flagged for a closer look

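In 82 groups of animals tested for a single animal far from the others, 7 had one, and chance alone gives about 1 in 20. The measure is the gap to the nearest animal over the range of the group, set against Dixon's 95% critical value. M1002 stood below the other wIFN-α livers in WHV reads (0.695). TLR3 was apart in F1013 (0.527, highest wIFN-α liver) and COL1A1 in M1012 (0.560, highest wIFN-α liver), the biopsy with most muscle reads. Among placebo livers MT2A was low in M1001 (0.516), NR1I3 was low in M1005 (0.586), and GBGT1 (0.517) and F3 (0.558) were high in F1015, a biopsy with muscle and skin reads. The part of these tissues in the values was not tested.

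The effect of wIFN-α at week 11 differed from that at weeks 0 and 3 in 244 genes. The differences of the effects named above were 3.29 for LGALS13, 2.93 for PLA2G2A, 2.62 for AREG, 2.42 for PDCD1 and 2.41 for RASGRP3. They were -4.43 for NIPAL4, -1.71 for MT1M, -1.64 for GJB2 and -1.59 for MPZL2. Skin RNA varied between these weeks, and its part in the negative differences was not tested.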

How the results depend on the processing

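At week 11 3073 genes were called, 1653 with the animal as a replicate block, 2667 in that block without F1016 and F1018, 1534 at a fold above 2, and 2880 to 3295 with 1 animal left out. The other tools, scalings, filters and covariates gave 3027 to 3464. The difference in WHV reads was -0.68 (exact permutation test, p = 0.600) as a change from week -3 with the animal as a replicate block, and -1.30 to -0.63 with 1 animal left out. Against week 7, the block gave 13 genes in place of 0, and leaving out 1 animal 0 to 1, the 1 being without F1020. Against weeks 0 and 3 the block gave 754 in place of 244, and leaving out 1 animal 97 (without M1002) to 304 (without M1012), with 149 without F1020. DESeq2 called 1 gene by sex in place of 0. KRT1 turned to 0.83 with DESeq2 and 0.72 without the muscle and skin biopsies, and HBA2 to -0.12 with lane as a covariate and to -0.00 in the block without F1016 and F1018. Of 200 named genes that were called, 176 kept the call in every alternative and with each animal left out, the blocked fits and the fold above 2 aside, and 73 lost it in at least 1 of the blocked fits. Why calls were lost with the block was not tested. IFNG and APOBEC3A had too few reads to pass the filter.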
